A study of Arabidopsis thaliana with 12 samples.

Results

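CLE20 (AT1G05065), CLE25 (AT3G28455) and CLE26 (AT1G69970) are Arabidopsis genes for small secreted peptides of the CLE family. They were taken by their symbols, and each had 1 entry on the array, giving 3 genes of the 16548 tested. Their transcripts were measured in entire roots of 3 lines in which a Dof transcription factor gene is switched on by an estrogen through the vector ER8. The Dof1.1 line has the genotype ER8Dof1.1/S32/Col, the Dof2.2 line ER8Dof2.2/SUC2p::GFP-GUS and the PEAR2 line ER8PEAR2/SUC2p::GFP-GUS, where SUC2 is a companion cell gene whose promoter drives the reporter. Seedlings 68 h old were moved for 16 h to plates lacking estriol (mock) or holding 10 µM of this estrogen, on GM medium in continuous light. Each of the 6 groups of line and treatment had 2 arrays, titled as biological replicates, so 12 arrays in all. The labels do not say whether a line is 1 transformant or several, and no estriol-treated roots without a Dof construct were analysed here, so an effect of estriol itself and one of the Dof gene cannot be told apart.

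CLE genes encode precursors from which a short peptide is cut near the C terminus. The peptide leaves the cell and binds leucine-rich repeat receptor kinases such as CLV1 and the BAM receptors. CLV2 and CRN are partners in this signalling. In the root, CLE25, CLE26 and CLE45 are known from the developing protophloem, the first sugar-conducting cell file to mature, and applied CLE26 and CLE45 peptide hold back its differentiation. CLE25 is also known as a signal that travels from drying roots to leaves, and applied CLE20 peptide shortens the root meristem. Dof factors of the PEAR group act in early phloem. The comparisons ask whether the 3 CLE transcripts change with estriol in these lines, and whether they change alike in the 3 lines. The Dof1.1 line differs from the other lines in background as well as in its Dof gene. In a difference between it and another line, the Dof gene and the background cannot be told apart.

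Values are log2 signals as deposited, normalised by the authors. Arrays of one group correlated at 0.988 to 0.995 over all 28583 entries of the table, and arrays of mock and estriol roots of one line at 0.91 to 0.959. How many arrays there are limits precision. Background levels were not given, and a gene is called dim in a group where its mean lies below the lower quartile of all entries. Wherever 3 values for the 3 lines follow each other, the order is Dof1.1 line, Dof2.2 line, PEAR2 line. That quartile stood at 3.56, 2.99 and 4.04 in mock roots and at 3.57, 2.94 and 4.0 in estriol roots. None of the 3 CLE genes was dim in any group. Tests are from limma, fitted over all genes and arrays, with the Benjamini-Hochberg adjustment over the 16548 genes and a threshold of 0.05. Changes are log2 values with the SE of this fit and its 95% interval. As a check of the lines, AT2G28810, the locus usually called DOF2.2, read 5.39 and 5.91 without and 8.36 and 9.01 with estriol in the Dof2.2 line. AT5G02460, usually called PEAR2, stood at 7.92 and 7.81 and then at 12.25 and 12.24 in the PEAR2 line. Its level was already raised in mock roots of that line. After quantile normalization of all arrays together it was 1.35 above Dof1.1 mock roots (limma adjusted p = 0.022). Above Dof2.2 mock roots it was 1.09 (limma adjusted p = 0.0222). As deposited these differences were 1.675 and 1.97 (limma adjusted p = 0.00215 and 8.58e-05). The Dof1.1 transcript was not analysed here. DOF2.2 was also higher with estriol in the other lines, by 2.98 (SE 0.27, limma adjusted p = 1.67e-05) where Dof1.1 was induced. Where PEAR2 was induced it was higher by 2.04 (SE 0.27, limma adjusted p = 0.000486). The DOF2.2 rise in the Dof2.2 line less that in the Dof1.1 line was 0.05 (SE 0.39, limma adjusted p = 0.992). DOF2.2 transcript was thus not specific to its own line, and its rise does not tell that line from the Dof1.1 line.

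CLE25 rose in all 3 lines, and CLE26 and CLE20 rose in the Dof2.2 line. CLE26 also rose over the 3 lines together, and no difference between lines in its change passed. The CLE20 change differed between the Dof2.2 and Dof1.1 lines, a call that some recalculations lost. Of the 3 genes, 1 rose in the Dof1.1 line, where 17.8% of all genes tested rose and 34% passed in either direction. All 3 of 3 rose in the Dof2.2 line, against 14.8% rising and 28.4% passing, and 1 of 3 in the PEAR2 line, against 8.33% and 18.8%. The median change of the 3 genes was 0.66, 1.25 and 0.53 in the 3 lines, where the median of all genes was 0.11, 0.1 and 0.03. In entire roots, more cells with a transcript and more transcript per cell cannot be told apart.

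**Figure D1:**
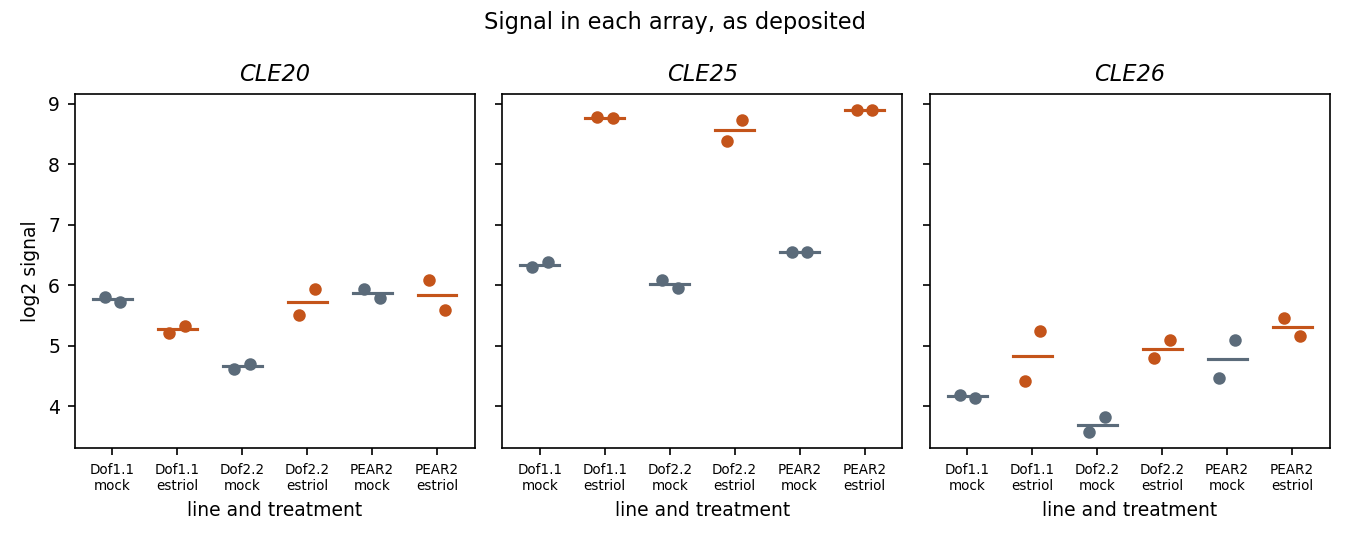
Log2 signal of CLE20, CLE25 and CLE26 in each of the 12 arrays as deposited. Points are arrays, bars are means of 2 arrays, grey is mock and orange is estriol. Estriol arrays of CLE25 lie at 8.38 to 8.9 and its mock arrays at 5.95 to 6.55. Levels of different genes come from different probes and are not to be set against each other.

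CLE25 lay above the lower quartile in all 12 arrays. With Dof1.1 its mock arrays stood at 6.3 and 6.38 and its estriol arrays at 8.77 and 8.76. The Dof2.2 line had 6.09 and 5.95 in mock roots and 8.38 and 8.73 with estriol. In the PEAR2 line the mock arrays read 6.54 and 6.55 and the estriol arrays 8.89 and 8.9. Every estriol array was thus higher than every mock array, also across lines, and the treatments were at least 2.29 apart within each line, where arrays of one group differed by at most 0.35.

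Expressed as changes, CLE25 rose by 2.42 (SE 0.15, 95% interval 2.1 to 2.75, limma adjusted p = 1.25e-06) in the Dof1.1 line, which is 5.37-fold. The Dof2.2 line had a rise of 2.54 (SE 0.15, interval 2.21 to 2.86, limma adjusted p = 1.02e-06), or 5.8-fold. For the PEAR2 line the rise was 2.35 (SE 0.15, interval 2.02 to 2.68, limma adjusted p = 4.33e-06), or 5.1-fold. These changes were larger than those of 98.4%, 99.0% and 98.8% of the genes tested, at positions 272, 166 and 196 from the top. Genes that rose in all 3 lines numbered 1002, or 6.06% of those tested. The mean rise over the 3 lines was 2.44 (SE 0.09, limma adjusted p = 9.17e-09), in a contrast in which 26.2% of genes rose.

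No difference between lines in the CLE25 rise passed the threshold, and the intervals bound how large one could be. The rise in the Dof2.2 line less that in the Dof1.1 line was 0.11 (interval -0.36 to 0.58, limma adjusted p = 0.966). PEAR2 less Dof1.1 gave -0.075 (interval -0.54 to 0.39, adjusted p = 0.926), and PEAR2 less Dof2.2 gave -0.19 (interval -0.65 to 0.28, adjusted p = 0.867). After quantile normalization of all arrays together the rises were 2.48, 2.49 and 2.48 in the 3 lines. The PEAR2 transcript itself was uneven between lines. It changed by 4.38 (SE 0.2, limma adjusted p = 8.68e-07) in its own line and by 1.02 (adjusted p = 0.00293) where Dof1.1 was induced, and had a change of 0.13 (adjusted p = 0.698) in the Dof2.2 line. The first and last of these changes differed by 4.25 (limma adjusted p = 9.58e-05).

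CLE26 had mock means of 4.16, 3.7 and 4.78 in the 3 lines, where the lower quartile of all entries stood at 3.56, 2.99 and 4.04. In the Dof2.2 line the mock arrays stood at 3.57 and 3.82 and the estriol arrays at 4.79 and 5.09. With Dof1.1 they read 4.19 and 4.14, then 4.42 and 5.24, and with PEAR2 4.46 and 5.09, then 5.45 and 5.16. Estriol arrays were above mock arrays in every line, but the gap was 0.97 with Dof2.2, 0.23 with Dof1.1 and 0.07 with PEAR2, while arrays of one group lay up to 0.82 apart. Both estriol arrays were above both mock arrays for 37.4%, 37.7% and 33.6% of all genes in the 3 lines.

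CLE26 rose by 1.25 (SE 0.28, interval 0.61 to 1.88, limma adjusted p = 0.00783) in the Dof2.2 line, or 2.37-fold. Without estriol array 2 of that line the change was 1.09 and missed the threshold (limma adjusted p = 0.0577). With Dof1.1 the change was 0.66 (SE 0.28, interval 0.03 to 1.3, limma adjusted p = 0.0994), which passed after quantile normalization (0.84, adjusted p = 0.0414) and without estriol array 1 (1.07, adjusted p = 0.0194). Without estriol array 2 it was 0.26 (adjusted p = 0.565), so the value in this line turned on which estriol array was kept. For the PEAR2 line it was 0.53 (SE 0.28, interval -0.1 to 1.16, limma adjusted p = 0.251), which became 0.21 without mock array 1 (adjusted p = 0.772) and 0.84 without mock array 2 (adjusted p = 0.144). Over the 3 lines together CLE26 rose by 0.81 (SE 0.16, interval 0.45 to 1.18, limma adjusted p = 0.00213), or 1.76-fold, and kept this call when any single array was left out (0.68 to 0.95, adjusted p of up to 0.0078).

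The CLE26 change was not shown to differ between lines. The Dof2.2 change less the Dof1.1 change was 0.58 (interval -0.31 to 1.47, limma adjusted p = 0.74), and ran from 0.17 without Dof1.1 estriol array 1 to 0.99 without estriol array 2. PEAR2 less Dof1.1 was -0.13 (interval -1.03 to 0.76, adjusted p = 0.931), and PEAR2 less Dof2.2 was -0.71 (interval -1.61 to 0.18, adjusted p = 0.577). These intervals are wider than those of CLE25, and each reaches past a 2-fold difference on at least 1 side.

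**Figure D2:**
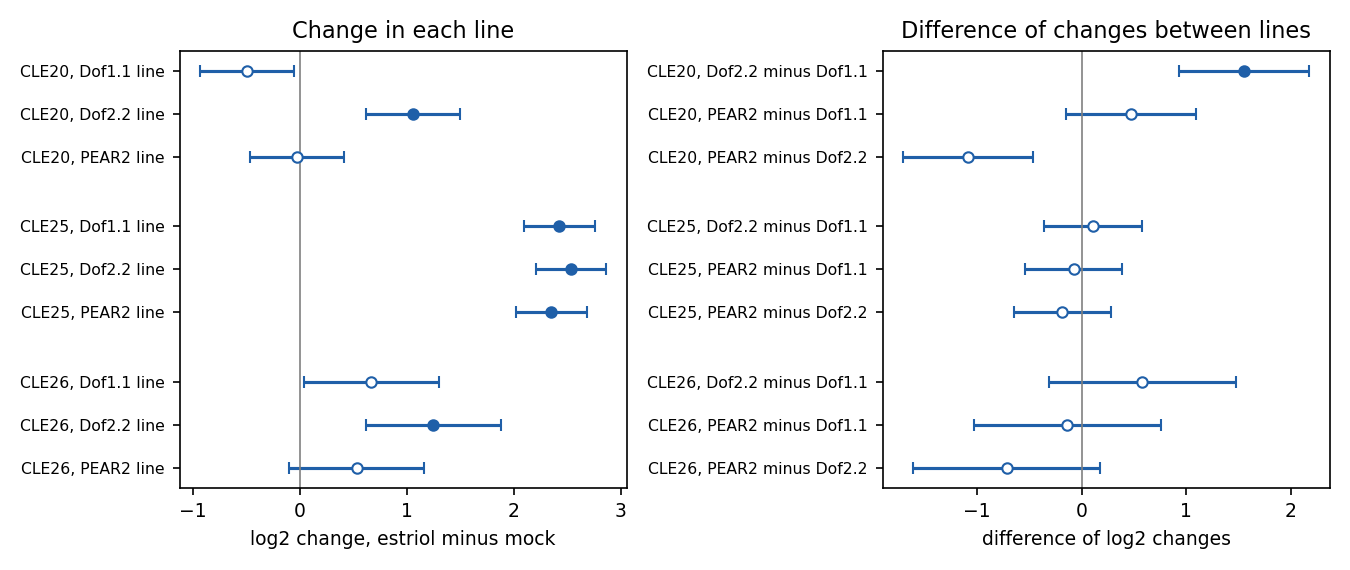
Left, log2 change from mock to estriol of CLE20, CLE25 and CLE26 in each line; right, differences of these changes between pairs of lines. Points are limma estimates from 2 arrays per group, bars are 95% intervals, and filled points have adjusted p under 0.05. The 3 CLE25 changes lie between 2.35 and 2.54, and the 1 filled difference is that of CLE20 between the Dof2.2 and Dof1.1 lines, at 1.56.

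CLE20 was the 1 gene of the 3 with a difference between lines that passed. With Dof2.2 its mock arrays stood at 4.61 and 4.7 and its estriol arrays at 5.5 and 5.93, with no overlap. Where Dof1.1 was induced the order was the opposite, with mock arrays at 5.81 and 5.72 and estriol arrays at 5.21 and 5.33. With PEAR2 the treatments overlapped, mock arrays reading 5.94 and 5.79 and estriol arrays 6.09 and 5.59. Mock and estriol arrays were clear of each other, in either order, for 63.2%, 61.3% and 61.8% of all genes in the 3 lines.

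CLE20 rose by 1.06 (SE 0.2, interval 0.62 to 1.5, limma adjusted p = 0.00241) in the Dof2.2 line, or 2.08-fold, and kept this call when any single array was left out (0.84 to 1.27, adjusted p of up to 0.0249). With Dof1.1 it had a change of -0.50 (SE 0.2, interval -0.93 to -0.06, limma adjusted p = 0.0801), which passed when the replicate number was a block within the line (adjusted p = 0.045) and stood at -0.28 (adjusted p = 0.3) after quantile normalization. For the PEAR2 line the change was -0.025 (SE 0.2, interval -0.46 to 0.41, limma adjusted p = 0.961).

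Tested directly, the CLE20 change was higher in the Dof2.2 than in the Dof1.1 line by 1.56 (SE 0.28, interval 0.93 to 2.18, limma adjusted p = 0.0228), a ratio of 2.94. In this comparison 1.53% of all genes passed in either direction and 0.586% were higher in the Dof2.2 line. The call was lost with array weights (adjusted p = 0.0588). It was also lost without Dof1.1 mock array 1 (1.51, adjusted p = 0.0871), mock array 2 (1.6, 0.07), estriol array 1 (1.5, 0.094) or estriol array 2 (1.61, 0.0614), and without Dof2.2 mock array 1 (1.51, 0.0772) or estriol array 2 (1.34, 0.07). The size stayed between 1.34 and 1.77 when single arrays were left out. PEAR2 less Dof2.2, between the lines that share a background, was -1.08 (SE 0.28, interval -1.71 to -0.46, limma adjusted p = 0.106). In that comparison 1.66% of genes passed. PEAR2 less Dof1.1 was 0.47 (interval -0.15 to 1.09, limma adjusted p = 0.493), where 2.91% passed, and ran from 0.22 without PEAR2 estriol array 1 to 0.72 without estriol array 2. Over the 3 lines together the change was 0.18 (SE 0.11, limma adjusted p = 0.231).

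Levels between lines moved with scaling. Array quantiles lay closer within a line than between lines. As deposited, the median of all genes was 0.86 higher in mock roots of the PEAR2 line than of the Dof2.2 line, and 80.1% of genes were called different. After quantile normalization of all arrays together that median was -0.02. The other level comparisons as deposited called 44.2% (mock, Dof2.2 and Dof1.1), 28.7% (mock, PEAR2 and Dof1.1), 46.4% (estriol, Dof2.2 and Dof1.1), 34% (estriol, PEAR2 and Dof1.1) and 76.8% (estriol, PEAR2 and Dof2.2) of all genes. Level differences of the CLE genes are given on both scales for this reason.

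**Figure D3:**
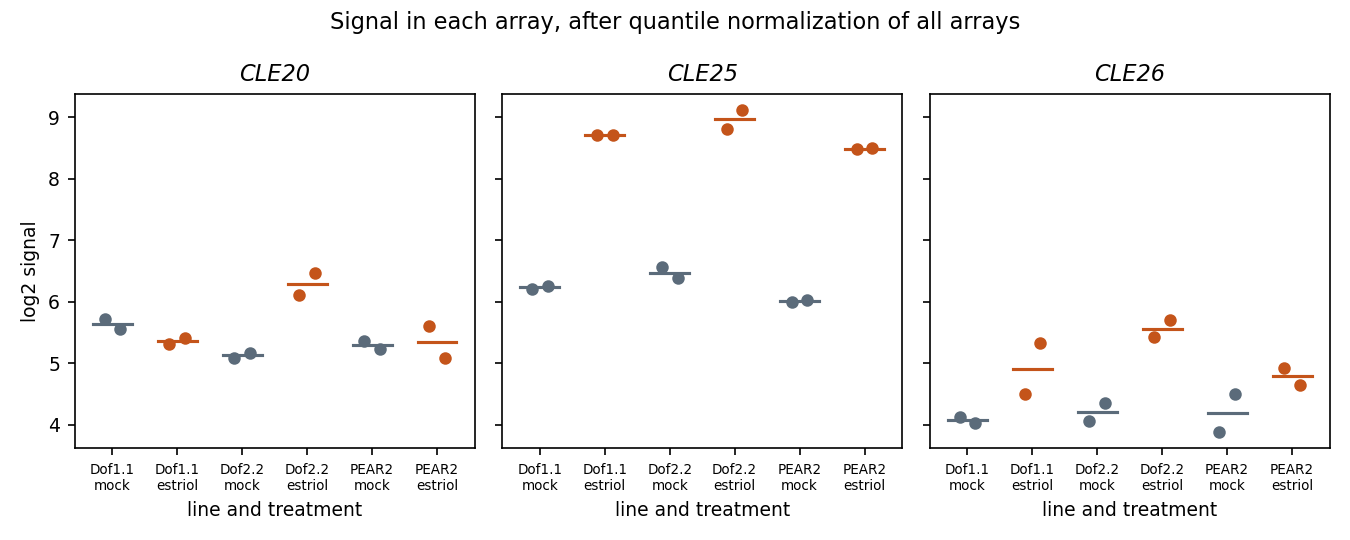
The same arrays after quantile normalization of all 12 together, which puts the lines on one scale. Points are arrays, bars are means of 2 arrays, grey is mock and orange is estriol. CLE20 in estriol roots of the Dof2.2 line (6.11 and 6.46) lies above the other 10 arrays, and CLE25 keeps its gap between mock and estriol in each line.

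On the common scale, CLE20 was highest in estriol roots of the Dof2.2 line, at 6.28 ± 0.25 (SD, n = 2). There followed mock roots of the Dof1.1 line at 5.64 ± 0.12, estriol roots of the Dof1.1 line at 5.36 ± 0.07, estriol roots of the PEAR2 line at 5.34 ± 0.37, mock roots of the PEAR2 line at 5.3 ± 0.09 and mock roots of the Dof2.2 line at 5.13 ± 0.06. The highest group stood clear of the next, while the arrays of PEAR2 estriol roots (5.08 and 5.6) overlapped each of the lower groups. The share of all genes with a group set apart in this way was not computed. In estriol roots, CLE20 was higher in the Dof2.2 than in the Dof1.1 line by 0.92 (SE 0.19, limma adjusted p = 0.0146), in a comparison that called 11.4% of all genes, against 0.45 (adjusted p = 0.0861) as deposited. PEAR2 less Dof2.2 in estriol roots was -0.94 (limma adjusted p = 0.0101), where 18.3% of all genes were called, against 0.13 (adjusted p = 0.566) as deposited, so the sign turned with the scale. PEAR2 less Dof1.1 in estriol roots was -0.019 (limma adjusted p = 0.961), against 0.57 (adjusted p = 0.0481) as deposited, a call made only before rescaling. In mock roots PEAR2 less Dof1.1 was -0.34 (limma adjusted p = 0.348), against 0.1 (adjusted p = 0.713). For the other pairs of mock groups, Dof2.2 less Dof1.1 was -0.51 (limma adjusted p = 0.175), where the deposited values gave -1.11 (adjusted p = 0.0038), and PEAR2 less Dof2.2 was 0.17 (adjusted p = 0.63), where the deposited values gave 1.21 (adjusted p = 0.000497). Centring on the 75th percentile gave these mock differences as -0.63 (adjusted p = 0.103) and 0.34 (adjusted p = 0.284), so neither was called on a scale shared by the lines.

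CLE25 formed 2 tiers on the common scale. The estriol groups stood at 8.96 ± 0.23 with Dof2.2, 8.71 ± 0.01 with Dof1.1 and 8.49 ± 0.01 with PEAR2 (SD, n = 2). The mock groups stood in the same order, at 6.47 ± 0.12, 6.23 ± 0.02 and 6.01 ± 0.02. Neighbouring groups did not overlap within either tier, but the share of all genes for which this holds was not computed. Between the ends of each tier, PEAR2 less Dof2.2 was -0.47 in estriol roots (limma adjusted p = 0.0488) and -0.47 in mock roots (adjusted p = 0.0834). Centring on the 75th percentile gave -0.51 (limma adjusted p = 0.0347) and -0.35 (adjusted p = 0.151), with the same sign. As deposited the same differences were 0.34 (limma adjusted p = 0.0565) and 0.53 (adjusted p = 0.00839), with the opposite sign. The order of lines within a tier thus depended on the scale and is not settled. Dof2.2 less Dof1.1 was 0.25 in estriol and 0.24 in mock roots (limma adjusted p = 0.295 and 0.398), against -0.21 and -0.32 as deposited (adjusted p = 0.254 and 0.0972). PEAR2 less Dof1.1 was -0.22 and -0.23 (limma adjusted p = 0.316 and 0.411), against 0.13 and 0.2 as deposited (adjusted p = 0.517 and 0.3). No call was made in these, and the sign turned with the scale in each.

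CLE26 stood highest on the common scale in estriol roots of the Dof2.2 line, at 5.56 ± 0.19, followed by estriol roots of the Dof1.1 line at 4.91 ± 0.59 and of the PEAR2 line at 4.79 ± 0.19 (SD, n = 2). The mock groups lay at 4.21 ± 0.2, 4.19 ± 0.43 and 4.08 ± 0.06 in the Dof2.2, PEAR2 and Dof1.1 lines and overlapped, as did the pair of lower estriol groups. None of the mock levels differed past the threshold on this scale (PEAR2 less Dof2.2 at -0.020, limma adjusted p = 0.978), where the deposited values gave 1.08 (adjusted p = 0.0059). The other mock differences were 0.13 for Dof2.2 less Dof1.1 and 0.11 for PEAR2 less Dof1.1 (limma adjusted p = 0.838 and 0.864), against -0.47 and 0.61 as deposited (adjusted p = 0.188 and 0.124). In estriol roots PEAR2 less Dof2.2 was -0.78 (limma adjusted p = 0.0822), with the opposite sign as deposited, at 0.36 (adjusted p = 0.253). PEAR2 less Dof1.1 likewise turned, from 0.47 (adjusted p = 0.216) as deposited to -0.13 (adjusted p = 0.79). Dof2.2 less Dof1.1 in estriol roots was 0.65 (limma adjusted p = 0.17), against 0.11 (adjusted p = 0.759).

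Within the CLE family, 17 of 32 listed peptide genes were among the genes tested. In the Dof1.1 line 4 rose, 2 fell and 11 did not pass. The Dof2.2 line had 6, 2 and 9, and the PEAR2 line 4, 2 and 11. Over all genes tested, 17.8%, 14.8% and 8.33% rose and 16.2%, 13.6% and 10.4% fell in the 3 lines. With the replicate number as a block, 6 in place of 2 fell in the Dof1.1 line. The median change of the list was 0.04, 0.15 and 0.15, beside 0.11, 0.1 and 0.03 for all genes. CLV3, CLE18, CLE21, CLE22 and CLE43 were dim in every group, and CLE27, CLE40 and CLE45 in most groups. None of these passed in any line, so the medians and the genes that did not pass include many dim genes. The list contains CLE20, CLE25 and CLE26 themselves.

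Risers besides the 3 phloem genes were CLE41, CLE42 and CLE44, which encode TDIF and a close relative, peptides that keep cambial cells from becoming xylem. Among the 17 tested, CLE41 had the largest mean rise, at 3.01 over the lines, with CLE25 next at 2.44. Fallers were CLE14, a root peptide gene known from phosphate starvation, at -4.07, -4.02 and -1.8 (limma adjusted p of at most 0.000218), CLE16 at -1.5 with Dof1.1 (adjusted p = 0.000992) and -1.46 with Dof2.2 (adjusted p = 0.00144), and CLE1 at -0.89 in the PEAR2 line (adjusted p = 0.0423). The CLE1 changes with Dof1.1 and Dof2.2 were -0.7 and -0.685 (limma adjusted p = 0.0682 and 0.0826), and no difference between lines in its change passed. CLE45, the other protophloem CLE gene, had changes of 0.04, 0.32 and 0.11 (limma adjusted p = 0.904, 0.265 and 0.772). It was dim in 5 of the 6 groups, the exception being estriol roots of the Dof2.2 line.

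**Figure D4:**
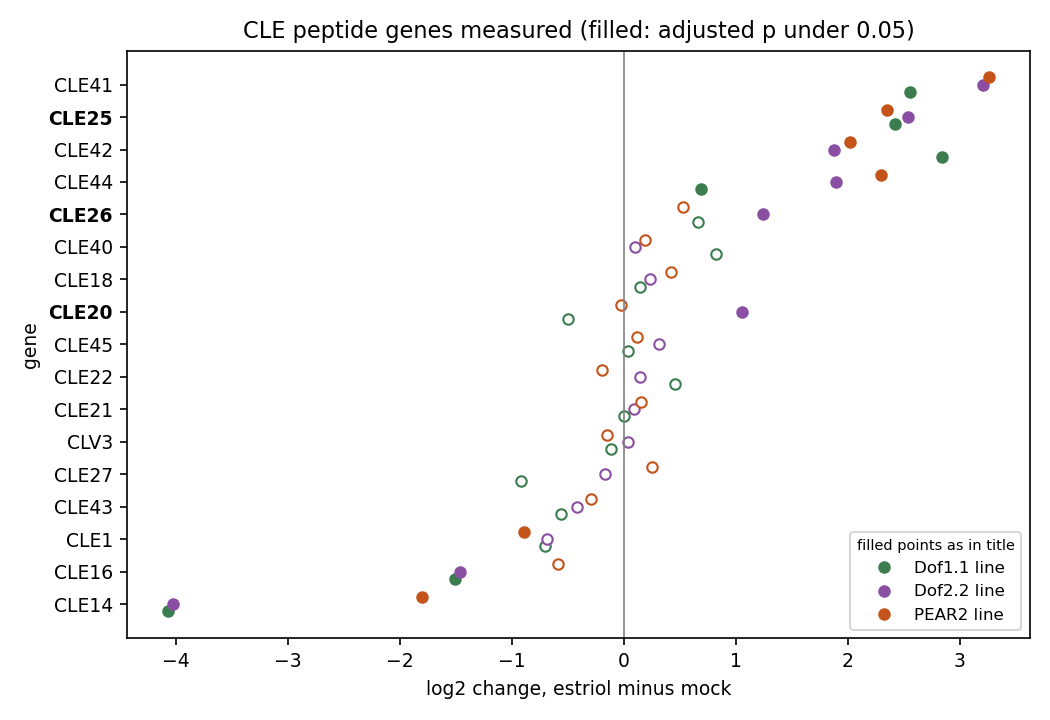
Log2 change from mock to estriol of the 17 CLE peptide genes tested, ordered by their mean change over the lines, with CLE20, CLE25 and CLE26 in bold. Each point is the limma estimate of 1 line from 2 arrays per group, and filled points have adjusted p under 0.05. CLE25 lies at 2.35 to 2.54 in all 3 lines, and CLE20 at 1.06 with Dof2.2 and -0.50 with Dof1.1.

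On the receiving side, 3 of 23 listed genes for CLE receptors and protophloem signalling were tested, and BAM3, CLV2 and CRN were not analysed here. OPS, a polar protein that promotes protophloem differentiation, rose by 0.91, 1.29 and 1.2 in the 3 lines (SE 0.15, limma adjusted p = 0.00103, 0.000118 and 0.000339). PXL2, a receptor kinase related to the TDIF receptor PXY, fell in all 3 lines, with changes of -1.62, -1.53 and -0.93 (limma adjusted p = 9.66e-06, 1.73e-05 and 0.00085). PXL1, a second relative of PXY, had changes of 0.34, 0.41 and 0.21 (limma adjusted p = 0.105, 0.0632 and 0.384). That is 1 riser, 1 faller and 1 gene that did not pass in each line.

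Markers of other cells were set beside the CLE genes. Of 18 root tissue markers 2 were tested, the root hair expansins EXPA7 and EXPA18, at means of 9.17 to 11.05 in mock and 4.88 to 9.17 in estriol roots. Both fell in every line, EXPA18 with changes of -3.98, -5.17 and -1.88 and EXPA7 with -3.48, -4.38 and -1.94. Of 11 companion cell and phloem loading genes 3 were tested. NHL26, a protein of companion cell plasmodesmata, changed by 2.37, 3.88 and 4.04, and the sugar exporter SWEET13 by 1.58, 2.83 and 1.97, with limma adjusted p of at most 0.000934. SWEET11, a related exporter, rose by 4.01 in the PEAR2 line (limma adjusted p = 0.000583) and had changes of 1.48 (adjusted p = 0.064) with Dof1.1 and 0.29 (adjusted p = 0.752) with Dof2.2. The 1 shoot marker tested of 23, LHCB4.1, a light-harvesting protein, stood at 5.52 to 7.03 and did not pass in any line. Of the sieve element and phloem development list, the tested genes were DOF2.2 and PEAR2 themselves, 2 of 24. The part of a shift in cell types in the CLE changes was not tested.

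Some genes followed the CLE genes closely across arrays. Likeness was taken as Pearson's r over the 12 arrays after the mean of each line was subtracted, which is a description, since arrays of one treatment share their grouping. For CLE25, 755 genes had r of at least 0.95. The closest were AT5G18550 (r = 0.999), AT2G43800 (r = 0.998) and AT5G26630 (r = 0.997), with changes in the Dof1.1 line of 2.92, 3.02 and 5.53. Among genes with a symbol they were UGT74F1, a salicylate glucosyltransferase (r = 0.997), NHL25 (r = 0.996) and the alkenal reductase AER (r = 0.994).

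For CLE26, 4 genes reached that r. AT4G03250 (r = 0.974), the meiosis gene SWI1 (r = 0.969) and AT5G02650 (r = 0.955) came first. AT4G03250 had changes of 0.18, 0.31 and 0.08 in the 3 lines and SWI1 of 0.465, 0.49 and 0.18, and neither passed in any line. AT5G02650 passed in the Dof2.2 line alone (0.94, limma adjusted p = 0.0209). The next genes with a symbol were the cytochrome P450 CYP78A9 (r = 0.954), with changes of 0.68, 1.26 and 0.51 in the 3 lines (limma adjusted p = 0.0358, 0.00164 and 0.152), and HEMA3 (r = 0.948), an enzyme of tetrapyrrole synthesis. CLE20 had 0 genes at that r, and the closest were AT4G36470 (r = 0.942), AT2G23680 (r = 0.933) and AT3G28580 (r = 0.92). AT4G36470 had changes of -0.265, 0.95 and -0.005 in the 3 lines and AT2G23680 of -0.3, 1.985 and -0.12. Both passed in the Dof2.2 line alone (limma adjusted p = 0.00104 and 0.000102). AT3G28580 had changes of -1 in the Dof1.1 line (limma adjusted p = 0.000833), 1.41 in the Dof2.2 line (adjusted p = 0.000102) and 0.35 in the PEAR2 line (adjusted p = 0.179). With a symbol they were the gibberellin receptor GID1B (r = 0.86), the tetraspanin TET8 (r = 0.858) and DFR (r = 0.852), an enzyme of anthocyanin synthesis.

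Of the genes next to the CLE genes on the chromosome, chosen by position, both neighbours of CLE20 and 1 of CLE25 were tested. AT1G05060 rose by 0.82, 1 and 0.81 in the 3 lines (limma adjusted p = 0.0273, 0.0121 and 0.0476), and AT1G05070 had 0.48, 0.67 and 0.28 (adjusted p = 0.027, 0.00611 and 0.243). Both rose with Dof2.2, as CLE20 did (1.06), and with Dof1.1, where CLE20 stood at -0.50. AT3G28460, beside CLE25, had changes of 0.38, 0.31 and 0.25 (limma adjusted p = 0.0808, 0.158 and 0.312), below the CLE25 rises of 2.35 to 2.54. The neighbours of CLE26 were not analysed here.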

How the data were processed

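The deposited table holds log2 signals of biotin-labelled one-colour arrays, made by the authors with RMA per the submitters' processing notes. Its version, level of summarisation and genome build were not given in the sources used here. Of 28583 entries, 16722 name 1 gene. Entrez identifiers matched 16574 to TAIR10.1 and names 148, CLE20 among these. The brightest entry of each gene was kept, leaving 16548 genes. DOF2.2 and PEAR2 are usual names, not in these tables. limma 3.58.1 in R 4.3.3 fitted 6 group means over 12 arrays with empirical Bayes moderation (6 residual and 3.94 prior degrees of freedom). The script was tested on simulated data. Members and lists were chosen with earlier results of these data known. Named were the 3 members, both transgenes, CLE and receptor genes past the threshold, and per member the 3 likest genes and 3 likest with a symbol. CLE45, PXL1, tissue markers and chromosome neighbours were added for context. Deviations of same-numbered mock and estriol arrays correlated at 0.32, 0.17 and 0.13 within the lines (Dof1.1, Dof2.2, PEAR2) and at -0.08 to 0.11 between lines, so the numbers may pair arrays of a line. P-values rest on the spread between 2 arrays per group. Alternatives were quantile normalization, 75th percentile centring, leaving out the dimmest 25% of genes, trended robust moderation, array weights, a replicate block, arrays of the compared lines alone, all entries, and leaving out each array.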

Additional observations from a re-analysis of the deposited data

Results flagged for a closer look

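The change of CLE20 differed between lines: it was higher in the Dof2.2 than in the Dof1.1 line by 1.56 (SE 0.28, limma adjusted p = 0.0228). It was the 1 of 9 such differences among the 3 CLE genes that passed. Of all genes, 1.53% passed in this comparison, 2.91% for PEAR2 less Dof1.1 and 1.66% for PEAR2 less Dof2.2. The Dof2.2 and Dof1.1 lines differ in background as well as in the Dof gene, and the parts of each cannot be told apart. Both estriol arrays of the Dof2.2 line lay above its mock arrays, and both of the Dof1.1 line lay below. Such separation, in either order, was common: 61.3% of all genes had it with Dof2.2 and 63.2% with Dof1.1. Leaving out any of 6 single arrays, or weighting arrays, took the adjusted p above 0.05, to at most 0.094.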

How the results depend on the processing

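Over the 21 changes and differences of changes of the 3 genes, 397 of 417 recalculations kept direction and call, among them all those of the CLE25 rise in each line. This share includes results that did not pass and stayed so. Of the 417, 252 left out 1 array, also from lines outside the comparison, where the estimate cannot move. The called CLE20 difference between the Dof2.2 and Dof1.1 lines kept its call in 13 of 20. Causes of changed calls or directions were not tested. Where 1 array of a group was left out, the remaining one was assumed to vary like the other groups. The block gives no levels between lines, and the arrays of the compared lines alone no mean of 3 lines. Quantile normalization gave CLE26 in the Dof1.1 line 0.84, CLE20 0.041 in the PEAR2 line and 0.31 over the lines (limma adjusted p = 0.0447), and CLE25 a difference of 0.0077 between the PEAR2 and Dof1.1 lines. With a replicate block CLE20 in the Dof1.1 line, at -0.50, had adjusted p = 0.045, and array weights put the CLE20 difference of 1.56 at 0.0588. No other call on the 3 genes' changes moved with the block. Leaving out single arrays gave CLE20 -0.28 to 0.23 in the PEAR2 line and 1.34 to 1.77 for Dof2.2 less Dof1.1, and CLE25 -0.065 to 0.28 for that difference. CLE26 ran from 0.26 to 1.07 with Dof1.1, 1.09 to 1.4 with Dof2.2 and -0.55 to 0.28 for PEAR2 less Dof1.1.

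Levels between lines moved with scaling, in size, in call or in sign, and the deposited values are given with each gene above. CLE20 kept its sign on all scales for Dof2.2 less Dof1.1 in mock and estriol roots and for PEAR2 less Dof2.2 in mock roots. Dof2.2 less Dof1.1 in mock roots under quantile normalization and 75th percentile centring was -0.51 and -0.63 for CLE20, 0.24 and 0.16 for CLE25 and 0.13 and 0.0075 for CLE26. PEAR2 less Dof1.1 in mock roots was -0.34 and -0.29 for CLE20 and -0.23 and -0.19 for CLE25. PEAR2 less Dof2.2 in mock roots was 0.17 and 0.34, -0.47 and -0.35, and -0.020 and 0.21 for CLE20, CLE25 and CLE26. In estriol roots Dof2.2 less Dof1.1 was 0.92 and 0.93 for CLE20 and 0.25 and 0.27 for CLE25. PEAR2 less Dof1.1 was -0.019 and 0.2 for CLE20, -0.22 and -0.23 for CLE25 and -0.13 by quantile for CLE26, and PEAR2 less Dof2.2 was -0.94 and -0.72, -0.47 and -0.51, and -0.78 and -0.48. With trended moderation CLE20 in estriol roots, PEAR2 less Dof1.1 at 0.57, had adjusted p = 0.0522. CLE25, PEAR2 less Dof2.2 at 0.34, passed with trended moderation, array weights, all entries and without the dimmest 25% of genes (adjusted p of 0.042 to 0.0497). Without single arrays, estriol levels of CLE20 ran from 0.23 to 0.66 (Dof2.2 less Dof1.1), 0.32 to 0.82 (PEAR2 less Dof1.1) and -0.13 to 0.38 (PEAR2 less Dof2.2), of CLE25 from 0.17 to 0.52 (PEAR2 less Dof2.2), and of CLE26 from -0.3 to 0.52 (Dof2.2 less Dof1.1) and 0.065 to 0.89 (PEAR2 less Dof1.1). PEAR2 less Dof2.2 in mock roots ran from 0.46 to 0.60 for CLE25 and 0.77 to 1.4 for CLE26. As deposited, 99.8% of genes called between these mock groups were higher in the PEAR2 line, and 53.7% after quantile normalization. Likewise 1.16% became 46.0% for Dof2.2 less Dof1.1.

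Of the CLE list, 4 fell with Dof1.1 and 1 with PEAR2 by quantile normalization, and 6 fell with Dof1.1 under the block, against 2 each. Without single arrays 2 to 4 and 1 to 2 fell. In the receptor list 2 rose in place of 1 by quantile normalization and with the block for Dof1.1 and Dof2.2, and 2 without the dimmest 25% of genes and, at most, without single arrays in the Dof2.2 line. Calls over all genes were 3095 in place of 4704 on the 4 Dof2.2 arrays, and with all entries 10324, 8829 and 5621 in place of 5623, 4704 and 3105 in the 3 lines. Without single arrays the PEAR2 line had 1859 to 3184. Differences of changes had 254 calls (148 to 277 without single arrays, 154 on their 8 arrays, 397 with all entries) for Dof2.2 less Dof1.1, 482 (180 to 640, and 854) for PEAR2 less Dof1.1 and 275 (111 to 355, and 490) for PEAR2 less Dof2.2. Over the mean of the lines 13890 in place of 7611 were called with all entries.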
